A study of Homo sapiens with 12 samples.

Results

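The 10 genes described here encode transcription factors of the AP-1 and EGR families: FOS, FOSB, FOSL1, FOSL2, JUN, JUNB, JUND, ATF3, EGR1 and EGR2. They were taken by symbol from a table of 58735 lines of counts per gene, and each of the 10 symbols stood on 1 line. All 10 passed the filter on low counts, as did 16946 genes in all. The data are RNA sequencing counts from CAL-27 and SCC-15, established lines of human oral squamous cell carcinoma, in 12 libraries that form 4 groups of 3. The control group of each line is labelled shControl, with the genotype given as WT and no treatment. The other group of each line is labelled shTTK, in which a short hairpin RNA lowers TTK, a kinase that the spindle checkpoint needs in mitosis, also untreated. Whether the libraries of a group came from separate cultures, and whether the knockdown cells were 1 clone, is not given in the labels, so p-values measure only the spread between these libraries, which may be technical.

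AP-1 is a dimer of proteins that share a basic DNA-binding region and a leucine zipper. FOS proteins pair with JUN proteins, JUN proteins can also pair with each other, and ATF3 is a related stress-induced factor that can pair with JUN. EGR1 and EGR2 are zinc finger factors. Growth factors and stress raise most of these genes within minutes through MAP kinases, without new protein synthesis, which is why they are called immediate early genes. Most of their mRNAs are short-lived. In squamous epithelium AP-1 is known for its part in the genes of keratinocyte differentiation, of matrix proteases and of inflammation.

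TTK itself was lower in the shTTK libraries of both lines. In CAL-27 it measured 46.4, 48.4 and 53.4 CPM in the controls and 35.6, 32.5 and 33.5 CPM with shTTK (CPM, the share of a library's counts scaled to a fixed total by the TMM method of edgeR). In SCC-15 it measured 67.5, 69.4 and 73.0 CPM in the controls and 26.9, 29.2 and 34.3 CPM with shTTK. The log2 fold changes were -0.54 ± 0.066 and -1.21 ± 0.065 (SE), so TTK fell less in CAL-27 relative to its control. The TTK level left with shTTK overlapped between the lines, while the control level was higher in SCC-15. Total counts lay between 16176655 and 18484112 per library. In SCC-15 the control library 1 stood apart from its group, with a mean chi-square per gene of 5.62 and 5.96 against the others, where counting error alone gives about 1, while the others differed from each other by 1.98. The shTTK library 1 did so less (3.07 and 3.78, with 1.95 between the others). All 8 epithelial and keratinocyte markers reached 1 CPM in every group. Their summed level was 2490 to 2650 CPM in CAL-27 controls and 4350 to 4430 CPM with shTTK, and 7390 to 7730 and 6880 to 6910 CPM in SCC-15. Of the markers of other cell types, the 6 of leukocytes summed to at most 14.2 CPM and the 7 of fibroblasts to at most 42.2 CPM in any library. The 4 of endothelium summed to 102 to 110 CPM in CAL-27 controls, 72.4 to 74.3 CPM with shTTK and at most 2.25 CPM in SCC-15. Markers at 0 counts in both groups of a line were PTPRC and DCN in CAL-27, CD3E and COL1A2 in SCC-15, and KDR in both lines. Other markers of the same lists were expressed. In CAL-27 controls and with shTTK, the endothelial CDH5 averaged 104 and 71.5 CPM, and the leukocyte marker CD14 9.31 and 12.7 CPM. The fibroblast marker COL1A1 averaged 26.7 and 34.3 CPM in CAL-27 and 20.1 and 20.4 CPM in SCC-15. The part of these shifts in the results was not tested. In bulk RNA, fewer cells that express a gene and less of its RNA per cell cannot be told apart.

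The upstream sequences of 4 of the 10 genes are shown because they hold binding-site letters of the families themselves, and because JUN and ATF3 carry the same 8 letters while their mRNA moved in opposite directions in SCC-15 (described with ATF3). Each window spans 250 bases before and 50 bases from the RefSeq start (GRCh38.p14), read 5′ to 3′ on the gene's strand. Capitals mark matches to the AP-1 site TGANTCA, the variant TGACATCA, the EGR site GCGNGGGCG and the serum response element (CArG box). The windows are JUN (chr1:58783998-58784297, minus strand), ATF3 (chr1:212565157-212565456, plus strand, the first of its RefSeq starts), FOSL2 (chr2:28392608-28392907, plus strand) and EGR1 (chr5:138465229-138465528, plus strand).
JUN: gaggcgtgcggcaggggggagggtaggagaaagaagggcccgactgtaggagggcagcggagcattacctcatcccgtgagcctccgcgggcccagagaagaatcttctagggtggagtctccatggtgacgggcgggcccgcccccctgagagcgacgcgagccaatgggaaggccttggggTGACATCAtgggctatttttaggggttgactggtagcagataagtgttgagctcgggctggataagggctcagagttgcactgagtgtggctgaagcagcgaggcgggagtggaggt
ATF3: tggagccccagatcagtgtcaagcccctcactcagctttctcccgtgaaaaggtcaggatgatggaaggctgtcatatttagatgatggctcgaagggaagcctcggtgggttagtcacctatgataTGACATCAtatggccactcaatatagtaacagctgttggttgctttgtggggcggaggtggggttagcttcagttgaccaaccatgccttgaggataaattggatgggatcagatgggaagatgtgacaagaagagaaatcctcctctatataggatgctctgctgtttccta
FOSL2: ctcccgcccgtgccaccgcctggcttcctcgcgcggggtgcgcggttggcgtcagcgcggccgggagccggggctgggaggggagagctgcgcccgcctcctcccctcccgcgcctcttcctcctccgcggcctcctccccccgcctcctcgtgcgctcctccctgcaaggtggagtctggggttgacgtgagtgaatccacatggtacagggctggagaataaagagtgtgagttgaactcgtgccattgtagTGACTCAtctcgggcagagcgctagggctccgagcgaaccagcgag
EGR1: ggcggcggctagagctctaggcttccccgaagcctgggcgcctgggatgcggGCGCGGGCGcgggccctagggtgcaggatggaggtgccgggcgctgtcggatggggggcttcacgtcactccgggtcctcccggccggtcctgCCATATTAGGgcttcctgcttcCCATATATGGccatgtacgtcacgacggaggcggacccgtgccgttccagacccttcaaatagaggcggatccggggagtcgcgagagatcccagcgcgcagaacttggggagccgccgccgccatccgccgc

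A window was given for 9 of the 10 genes; FOSL1 had none in the table used. Both strands were searched for 7 motifs, and no match in the 9 windows overlapped another. TGACATCA lay at -67 to -60 from the start in JUN and at -123 to -116 in ATF3, and 2.71% of 27305 windows of that length held it. TGANTCA was found only in the FOSL2 window among the 9, at 5 to 11 (7.76% of all windows). The EGR1 window held the serum response element at -105 to -96 and at -83 to -74, an element present in 1.29% of windows, and GCGNGGGCG at -198 to -190 (9.28%). The cAMP response element TGACGTCA was in the JUND window at -200 to -193 (1.98%), and the kappaB consensus of NF-kB in the FOSB window at -228 to -220 (11.9%). The ETS site CCGGAAG was in none of the 9 (10.7% of all windows). FOS, JUNB and EGR2 held none of the 7 motifs in this window. A match is a match of letters and does not show binding. JUN and ATF3 were set side by side after their changes were seen. In CAL-27 both log2 fold changes were above 0 (0.23 for JUN, and 0.20 for ATF3, not called). The call of ATF3 in SCC-15 held in 10 of 20 alternatives. ATF3 has 11 annotated transcripts, and which of its starts gave the counted mRNA was not tested.

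Several of these genes were among the most abundant mRNAs of the cells. To compare genes with each other, levels were divided by the length of all annotated exons (CPM per kilobase). The order, ranks and overlaps below hold for this length and can differ with another. FOS has 3238 bases of exon in all and 2158 in its longest transcript, and ATF3 has 4040 and 2103. EGR1 has 3138 bases by either length. The order by longest transcript is not reported here. In CAL-27 controls the order was EGR1 (454 ± 45.6), FOS (395 ± 43.6), JUNB (372 ± 19.0), JUN (355 ± 18.4), FOSB (197 ± 24.7), FOSL1 (185 ± 14.3), JUND (138 ± 9.55), ATF3 (111 ± 15.8), FOSL2 (34.9 ± 0.988) and EGR2 (17.8 ± 4.47), each as mean and SD of 3 libraries. EGR1 ranked 50 among 13445 protein-coding genes there. By this length, neighbours in the order from EGR1 to JUN overlapped in their libraries, as did FOSB and FOSL1. The other neighbours did not overlap.

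By the length of all annotated exons, the same order held in SCC-15 controls except for the places of JUN and JUND. EGR1 was again first (283 ± 24.5 CPM per kilobase, rank 96), then FOS (213 ± 9.16) and JUNB (210 ± 11.8), which overlapped each other. JUND, FOSB, FOSL1 and ATF3 followed between 81.2 and 69.1 CPM per kilobase and overlapped from each neighbour to the next. JUN came eighth at 34.5 ± 1.54 CPM per kilobase, below all libraries of ATF3 and above all of FOSL2 (22.2 ± 0.674). EGR2 was last at 4.45 ± 0.892 CPM per kilobase, near the middle of the protein-coding genes (percentile 48.2).

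**Figure D1:**
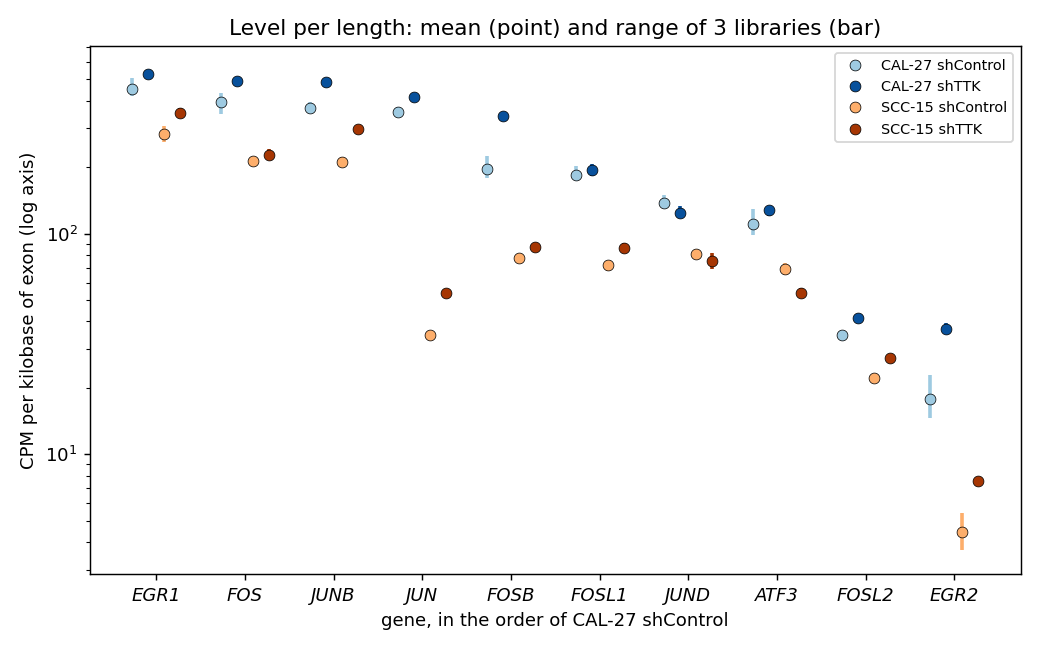
Level per length of the 10 genes (vertical log axis, CPM per kilobase of exon) in the 4 groups, as the mean (point) and range (bar) of 3 libraries. Genes stand in the order of the CAL-27 controls, and JUN shows the widest gap between the lines (355 against 34.5 in the controls).

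All 10 genes were lower in the SCC-15 than in the CAL-27 controls, with no overlap between the libraries of the lines. Over all genes tested, 76% were called in this comparison, 37.8% higher and 38.2% lower (edgeR quasi-likelihood test, Benjamini-Hochberg adjusted p under 0.05), and in 77.3% the libraries did not overlap. The median log2 difference of the 10 genes was -0.86, against -0.01 over all genes tested. JUN differed most, at -3.36 ± 0.040 (SE), a level 10.3 times higher in CAL-27 (edgeR adjusted p = 6.32e-42). EGR2 followed at -2.00 ± 0.20, FOSL1 at -1.36 ± 0.067 and FOSB at -1.35 ± 0.081. The other 6 lay between -0.89 (FOS) and -0.66 (FOSL2), and the largest edgeR adjusted p of the 10 was 2.12e-04, for ATF3. The lines also differ in donor and history, which cannot be told apart from the difference in these genes' levels.

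The make-up of the JUN family differed between the lines. Of the summed level per kilobase of JUN, JUNB and JUND, JUN took 41.0% ± 0.361 in CAL-27 controls and 10.6% ± 0.750 in SCC-15 controls (SD, n = 3). JUNB took 43.0% ± 0.302 and 64.5% ± 1.37, and JUND 16% ± 0.245 and 24.9% ± 0.702. Of the FOS family, FOS took the largest share in both, 48.6% ± 1.59 and 55.4% ± 0.919. FOSB took 24.2% ± 0.843 and 20.1% ± 0.356, FOSL1 22.9% ± 0.984 and 18.7% ± 1.19, and FOSL2 4.33% ± 0.443 and 5.76% ± 0.0547. No test was made of these shares, and the share of a gene also depends on the levels of the other genes of its family.

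With TTK knockdown, more of the 10 genes rose than fell in each line. In CAL-27, 6 rose (FOS, FOSB, FOSL2, JUN, JUNB and EGR2) and 0 fell, where 27.3% of all genes tested were called, 11.6% higher and 15.7% lower. In SCC-15, 6 rose (FOSL1, FOSL2, JUN, JUNB, EGR1 and EGR2) and 1 fell (ATF3), where 27.7% of all genes were called, 13.4% higher and 14.3% lower. The median log2 fold change of the 10 was 0.24 in CAL-27 and 0.28 in SCC-15, against -0.01 and 0.00 over all genes tested. FOSL2, JUN, JUNB and EGR2 were called higher in both lines, as were 2.87% of all genes, and JUND was called in neither. The libraries of the groups did not overlap in 7 of the 10 genes in CAL-27 (38.4% of all genes tested) and in 9 in SCC-15 (38.9%). The changes themselves differed between the lines in 3 genes, higher in SCC-15 for JUN and lower for FOSB and ATF3, where 25.4% of all genes tested were called, 13.3% higher and 12.1% lower. Together the 10 genes took 0.658% to 0.770% of the counts of the CAL-27 control libraries and 0.893% to 0.937% with shTTK. In SCC-15 they took 0.309% to 0.340% and 0.371% to 0.394%. These shares did not overlap between the groups of a line.

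**Figure D2:**
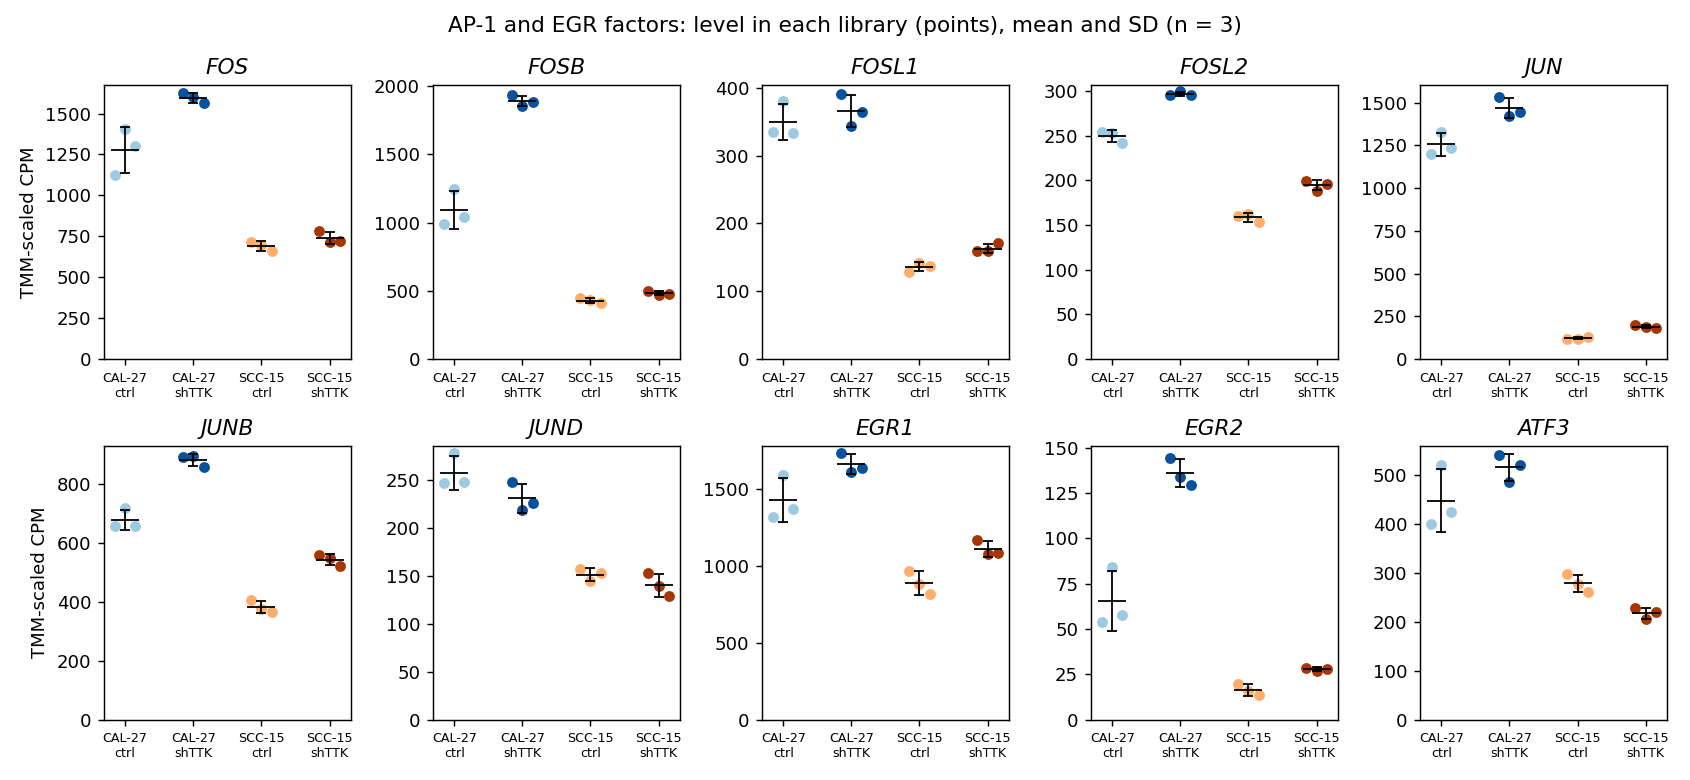
TMM-scaled CPM (vertical axis, from 0) of each gene in each library, grouped on the horizontal axis by line and hairpin, with the mean and SD of 3 libraries in black. EGR2 and FOSB have the largest fold changes in CAL-27 (2.07 and 1.73), EGR2 and JUN in SCC-15 (1.70 and 1.55), and ATF3 is lower with shTTK in SCC-15.

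FOS (chromosome 14, 75278774 to 75282230, plus strand, GRCh38, GENCODE 29), the founding member of its family, rose in CAL-27. It measured 1126, 1405 and 1302 CPM in the controls and 1625, 1599 and 1565 CPM with shTTK, a log2 fold change of 0.32 ± 0.076 (edgeR adjusted p = 0.0131). The groups did not overlap, and the control libraries were spread more widely than the shTTK libraries. In SCC-15 it measured 715, 700 and 658 CPM in the controls and 781, 717 and 719 CPM with shTTK. There too every shTTK library was higher, by little, and the log2 fold change of 0.10 ± 0.077 was not called (edgeR adjusted p = 0.433; 95% interval -0.08 to 0.27). The call in CAL-27 was lost when that line was fitted alone (edgeR adjusted p = 0.0589). The SCC-15 value was called when SCC-15 was fitted alone (0.0177) and without CAL-27 control library 1 (0.0223).

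FOSB (chromosome 19, 45467995 to 45475179, plus strand), whose protein pairs with JUN proteins like FOS, had the second largest rise of the 10 in CAL-27. It measured 989, 1248 and 1040 CPM in the controls and 1934, 1857 and 1885 CPM with shTTK. This is a log2 fold change of 0.79 ± 0.078, or 1.73-fold (edgeR adjusted p = 7.06e-05). Every shTTK library lay well above the highest control. In SCC-15 it measured 445, 430 and 412 CPM in the controls and 501, 471 and 479 CPM with shTTK. The groups did not overlap, but the log2 fold change of 0.17 ± 0.081 was not called (edgeR adjusted p = 0.164). It was called in SCC-15 fitted alone (edgeR adjusted p = 4.73e-06) and without CAL-27 control library 2 (2.09e-06). The change in SCC-15 minus that in CAL-27 was -0.62 ± 0.11 (edgeR adjusted p = 3.49e-03), so the rise was smaller in SCC-15. In CAL-27 the share of FOSB in the FOS family rose from 24.2% to 31.9% ± 0.219, while that of FOSL1 went from 22.9% to 18.1% ± 0.785 (SD, n = 3, no test made). In SCC-15 the FOSB share was 20.1% and 20.3%.

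FOSL1 (chromosome 11, 65892049 to 65900573, minus strand) encodes FRA-1, a FOS protein without the activation domain of FOS that is common in squamous carcinoma. In CAL-27 it measured 334, 381 and 334 CPM in the controls and 391, 343 and 364 CPM with shTTK, and the groups overlapped. Its log2 fold change there was 0.07 ± 0.063 (edgeR adjusted p = 0.519), and 0.15 without control library 2, when it was called (0.00694). In SCC-15 it rose from 128, 142 and 138 CPM to 159, 159 and 171 CPM, a log2 fold change of 0.26 ± 0.069 (edgeR adjusted p = 0.0154) with no overlap. That call was lost without shTTK library 3 (0.0662) and without both libraries numbered 1 (0.116). The difference between the lines, 0.20 ± 0.094, was not called (edgeR adjusted p = 0.168), but was without CAL-27 shTTK library 1 (0.0259) and with no filter on low counts (0.00327).

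FOSL2 (chromosome 2, 28392448 to 28417312, plus strand), which encodes FRA-2, rose by similar amounts in both lines. In CAL-27 it went from 254, 253 and 242 CPM to 296, 299 and 296 CPM, a log2 fold change of 0.25 ± 0.033 (edgeR adjusted p = 4.04e-09). In SCC-15 it went from 160, 163 and 153 CPM to 200, 188 and 195 CPM, a log2 fold change of 0.29 ± 0.035 (edgeR adjusted p = 9.66e-11). Neither pair of groups overlapped, and its libraries were close to each other in every group. The changes differed between the lines by 0.05, with a 95% interval of -0.05 to 0.14.

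JUN (chromosome 1, 58780788 to 58784327, minus strand) is a gene of 1 exon whose protein is the main partner of the FOS proteins. In SCC-15 it rose from 120, 119 and 129 CPM to 199, 185 and 184 CPM, a log2 fold change of 0.63 ± 0.040, or 1.55-fold (edgeR adjusted p = 5.94e-16). In CAL-27 it rose from 1202, 1328 and 1236 CPM to 1533, 1422 and 1447 CPM, a log2 fold change of 0.23 ± 0.035 (edgeR adjusted p = 2.63e-06). The groups did not overlap in either line, and all SCC-15 libraries stayed far below all CAL-27 libraries. The change was larger in SCC-15 by 0.41 ± 0.053 (edgeR adjusted p = 9.82e-08), the opposite order to that of FOSB. The share of JUN in its family went from 10.6% to 12.5% ± 0.272 in SCC-15 and from 41.0% to 40.5% ± 0.696 in CAL-27.

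JUNB (chromosome 19, 12791496 to 12793315, plus strand), a weaker activator than JUN that can oppose it, rose in both lines. In CAL-27 it went from 658, 718 and 657 CPM to 893, 896 and 858 CPM, a log2 fold change of 0.38 ± 0.035 (edgeR adjusted p = 1.32e-11). In SCC-15 it went from 407, 376 and 365 CPM to 561, 548 and 523 CPM, a log2 fold change of 0.51 ± 0.036 (edgeR adjusted p = 7.82e-15). No group overlapped its control. The difference between the lines, 0.13 ± 0.050, was not called (edgeR adjusted p = 0.0607). It was called in 7 of 19 alternatives. These were without CAL-27 control library 1 (edgeR adjusted p = 0.0265) or 3 (0.0276), SCC-15 control library 1 (0.00362), the shTTK library 3 of SCC-15 (0.0178) or both SCC-15 libraries numbered 1 (0.0085). RLE scaling (0.0475) and the replicate block (0.0238) were the others. JUNB shares 259 exonic bases with HOOK2 on the opposite strand, and how strand was used in the counting is not given in the sources used here. HOOK2, at 44.8 to 59.4 CPM in the group means, was not called in either line (log2 fold changes 0.10 and 0.06, edgeR adjusted p = 0.200 and 0.545).

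JUND (chromosome 19, 18279760 to 18281622, minus strand), the member of the family known for steady expression in resting cells, was the member not called in either line. In CAL-27 it measured 247, 278 and 248 CPM in the controls and 247, 219 and 226 CPM with shTTK, a log2 fold change of -0.16 ± 0.072 (edgeR adjusted p = 0.146). In SCC-15 it measured 157, 144 and 153 CPM and 153, 139 and 129 CPM, a log2 fold change of -0.11 ± 0.077 (edgeR adjusted p = 0.351). The groups overlapped in both lines. The 95% intervals reach from -0.32 to 0.00 and from -0.28 to 0.06. In CAL-27 it was called lower without shTTK library 1 (0.0424) and with no filter on low counts (0.00256). Its share of the JUN family went from 16% to 12.1% ± 0.481 in CAL-27 and from 24.9% to 17.6% ± 0.728 in SCC-15 (SD, n = 3), with no overlap of libraries and no test made. JUN and JUNB were called higher in both lines, which lowers this share even without a change of JUND.

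ATF3 (chromosome 1, 212565334 to 212620777, plus strand), induced by stress and often a repressor, fell in SCC-15. It measured 298, 278 and 262 CPM in the controls and 229, 206 and 220 CPM with shTTK, a log2 fold change of -0.36 ± 0.10 (edgeR adjusted p = 0.0338). In CAL-27 it measured 400, 521 and 425 CPM in the controls and 542, 487 and 520 CPM with shTTK. The CAL-27 groups overlapped through control library 2, and the log2 fold change of 0.20 ± 0.099 was not called (edgeR adjusted p = 0.184), but was without that library (0.34, 2.03e-04). The change in SCC-15 minus that in CAL-27 was -0.56 ± 0.14 (edgeR adjusted p = 0.0208), and JUN, which holds the same TGACATCA upstream, differed in the other direction.

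The calls of ATF3 depended on the libraries and settings used. The SCC-15 call held in 10 of 20 alternatives, among them SCC-15 fitted alone (edgeR adjusted p = 2.14e-08). Of the 10 losses, 9 came when SCC-15 control library 1 (0.116) or 2 (0.0818) was left out, likewise for shTTK library 1 (0.0584), 2 (0.113) or 3 (0.0847), CAL-27 shTTK library 3 (0.0535), both SCC-15 libraries numbered 1 (0.143), with limma-voom (0.0535) and with no filter on low counts (0.0878). The difference between the lines was lost in 4 of 19 alternatives, among them without CAL-27 control library 3 (0.0534), SCC-15 control library 1 (0.0559) or both SCC-15 libraries numbered 1 (0.0729). Its log2 fold change in SCC-15 stayed between -0.39 and -0.31 in all 20. Mitochondrially encoded genes moved with ATF3: they took 2.94% to 3.86% of counts in SCC-15 controls and 2.35% to 2.69% with shTTK. Their part in the result was not tested.

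EGR1 (chromosome 5, 138465490 to 138469315, plus strand), a rapid target of ERK signalling through the serum response elements upstream of it, rose in SCC-15. It measured 967, 881 and 813 CPM in the controls and 1164, 1073 and 1085 CPM with shTTK, a log2 fold change of 0.32 ± 0.084 (edgeR adjusted p = 0.0219). In CAL-27 it measured 1316, 1586 and 1368 CPM in the controls and 1732, 1607 and 1636 CPM with shTTK. Those groups did not overlap, by a narrow margin at control library 2, and the log2 fold change of 0.22 ± 0.084 was not called (edgeR adjusted p = 0.0922). The changes differed by 0.10, with a 95% interval of -0.17 to 0.37. In SCC-15 the call ended when control library 2 (edgeR adjusted p = 0.0584), control library 3 (0.067) or shTTK library 1 (0.0685) was omitted. The CAL-27 value was called without control library 2 (0.32, 0.0136) and with DESeq2 (adjusted p = 0.0406).

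EGR2 (chromosome 10, 62811996 to 62919900, minus strand), a relative of EGR1 at a much lower level, had the largest log2 fold change of the 10 in each line. In CAL-27 it rose from 54.1, 84.4 and 58.0 CPM to 145, 134 and 130 CPM, a log2 fold change of 1.05 ± 0.16, or 2.07-fold (edgeR adjusted p = 1.12e-03). In SCC-15 it rose from 20, 15.7 and 13.6 CPM to 28.6, 26.8 and 28.3 CPM, a log2 fold change of 0.76 ± 0.23 (edgeR adjusted p = 0.0378). Neither pair of groups overlapped, and its controls were the most widely spread of any member, with a CV of 25.2% in CAL-27 and 20.1% in SCC-15. The CAL-27 call held in all 20 alternatives and the SCC-15 call in 9, among them SCC-15 fitted alone (edgeR adjusted p = 7.72e-09). Of the 11 losses of the latter, 10 came when SCC-15 control library 2 (0.101) or 3 (0.118) was left out, likewise for shTTK library 1 (0.0945), 2 (0.0729) or 3 (0.0948), CAL-27 shTTK library 2 (0.0554) or 3 (0.0503), both SCC-15 libraries numbered 1 (0.0879), with limma-voom (0.0619) and with no filter on low counts (0.0735). The difference between the lines, -0.29 ± 0.28, was not called, but was without CAL-27 control library 2 (-0.53, 9.83e-04).

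**Figure D3:**
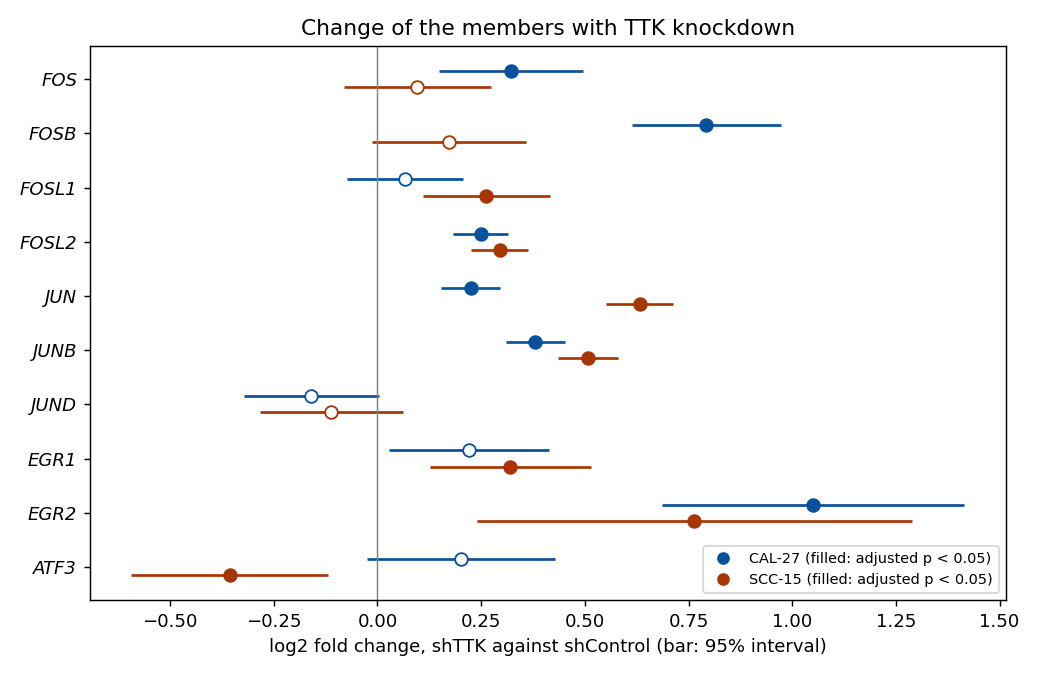
Log2 fold change with TTK knockdown (horizontal axis) of each gene in CAL-27 (blue) and SCC-15 (brown), with its 95% interval, filled where the edgeR adjusted p was under 0.05. FOSB and JUN change by unequal amounts in the lines (0.79 against 0.17, and 0.23 against 0.63), and ATF3 lies on opposite sides of 0.

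Within the groups, most of the 10 genes were high or low in the same libraries, with exceptions. In CAL-27 control library 2 all 10 lay above their group mean and 9 were the highest of their group, with a median deviation of 0.14 on the log2 scale. In CAL-27 shTTK library 1, 9 lay above their group mean and 8 were the highest, with a median deviation of 0.064. In SCC-15 the libraries numbered 1 had 7 members (control) and 9 members (shTTK) as the highest of their group. FOSL1 was the lowest of its group in both of these SCC-15 libraries, at -0.082 (control) and -0.038 (shTTK) from the group mean on the log2 scale. The latter was close to library 2 (-0.036). JUN in SCC-15 controls was highest in library 3 (0.073). The SD of log2 CPM in CAL-27 controls was 0.16 for FOS, 0.18 for FOSB, 0.14 for EGR1 and 0.20 for ATF3, against a median of 0.036 over the 2314 genes with a mean of at least 100 CPM. With shTTK in CAL-27 these SDs were 0.027, 0.030, 0.057 and 0.078, against a median of 0.039. FOSL2 stayed near the median in CAL-27 controls, at 0.041. Beside this, the summed level of 10 heat shock genes was 5893 to 5958 CPM in CAL-27 controls and 5477 to 5565 CPM with shTTK, and 9111 to 9251 and 9495 to 9748 CPM in SCC-15. Control library 2 of CAL-27 was at 5958 CPM, against 5893 and 5948 CPM in libraries 1 and 3. The abundant HSPA8 (1810 CPM) and HSP90AA1 (1400 CPM in the same controls) weigh most in this sum. The part of handling or stress in the results was not tested.

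**Figure D4:**
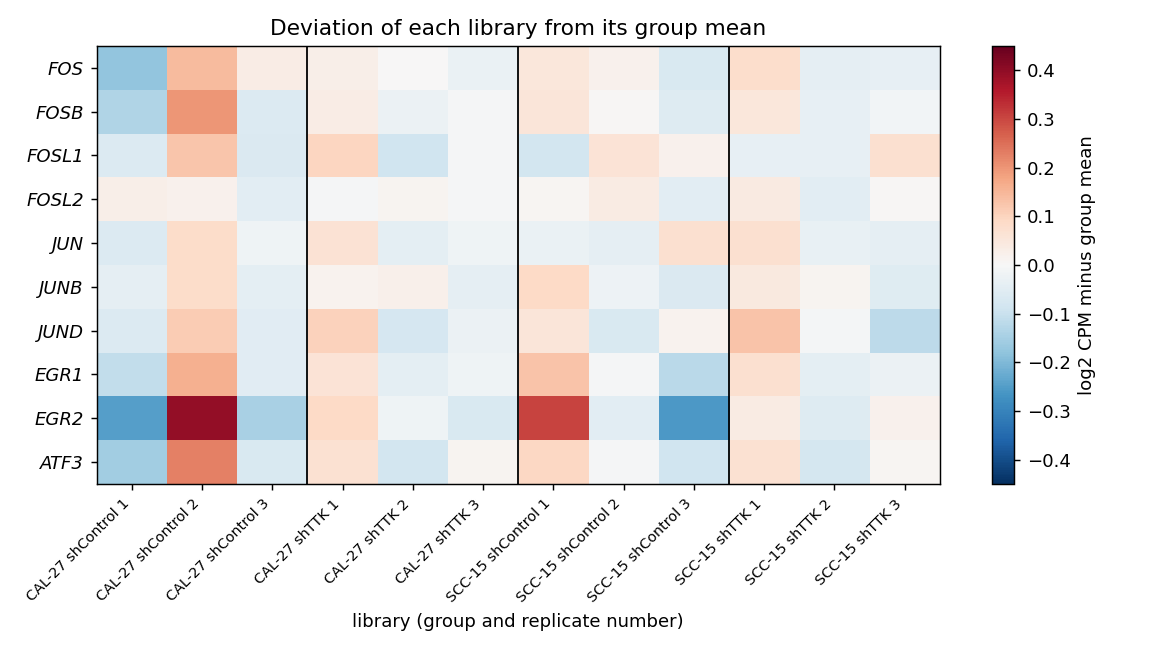
Deviation of each library from its group mean (colour, log2 CPM) for the 10 genes (rows) in the 12 libraries (columns, groups separated by lines). CAL-27 control library 2 is above its group mean in all 10 genes, and EGR2 deviates most.

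Other factors of the same dimers and pathways were counted in the same way, against shares over all genes tested of 11.6% higher and 15.7% lower in CAL-27 and 13.4% higher and 14.3% lower in SCC-15. The counts describe the lists, which were not tested as sets. Of 10 other bZIP partners tested, 1 rose and 1 fell in CAL-27, and 4 rose and 3 fell in SCC-15. JDP2, which can hold AP-1 sites in a repressed state, rose in SCC-15 by 1.16 ± 0.20 from 1.58 to 3.54 CPM (edgeR adjusted p = 3.57e-06). The small MAF gene MAFG fell in both lines (-0.28 and -0.47), whereas MAFF rose in both (0.22 and 0.29). Of the 4 other EGR and NAB genes, NAB1 and NAB2, corepressors of EGR proteins, rose in CAL-27 (0.20 and 0.46). The 1 that rose in SCC-15 was EGR3, by 1.19 ± 0.22, from 20.9 to 47.9 CPM (edgeR adjusted p = 3.02e-03); it was at 0.26 in CAL-27 (edgeR adjusted p = 0.280).

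Among 9 serum response and cAMP response factors, 3 rose and 2 fell in CAL-27, and 2 rose and 1 fell in SCC-15. SRF, which binds the serum response element, rose in both lines, from 137 to 184 CPM in CAL-27 (0.43 ± 0.038, edgeR adjusted p = 1.55e-15) and from 100 to 124 CPM in SCC-15 (0.31 ± 0.040, edgeR adjusted p = 2.42e-09). Its partner ELK4 fell in SCC-15 (-0.34), and ELK3 fell in CAL-27 (-0.21). Of 16 MAP kinases and their targets upstream of AP-1 and EGR, 2 rose and 5 fell in CAL-27, and 4 rose and 4 fell in SCC-15. The ribosomal S6 kinases RPS6KA3 and RPS6KA1 rose in both lines (0.15 and 0.38, 0.11 and 0.21). MAP2K2 and RPS6KA4 fell in CAL-27 (-0.26 and -0.42), and MAP2K1 and MAPK8, which encodes the JUN kinase JNK1, fell in SCC-15 (-0.35 and -0.34).

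Of 21 other immediate early genes, 6 rose and 4 fell in CAL-27, and 10 rose and 3 fell in SCC-15, with median log2 fold changes of 0.03 and 0.19. BTG2, an antiproliferative gene, rose in both lines (0.60 and 0.58). RHOB, a small GTPase, rose in CAL-27 (0.36) and fell in SCC-15 (-1.14), and SGK1, a serum-induced kinase, did the reverse (-0.27 and 0.47). The differences between the lines, -1.5 ± 0.057 and 0.73 ± 0.056, were both called (edgeR adjusted p = 7.62e-36 and 1.89e-13). Of 6 factors that bind AU-rich elements of short-lived mRNAs, 1 rose and 3 fell in CAL-27 and 3 rose and 1 fell in SCC-15. ZFP36L2, which promotes decay, rose in both (0.36 and 0.42), and ELAVL1, which stabilises such mRNAs, fell in both (-0.24 and -0.10).

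Of 21 tested genes known as AP-1 targets, 8 rose and 10 fell in CAL-27, where 11.6% of all genes tested were called higher and 15.7% lower. In SCC-15 12 rose, 1 fell and 8 were not called, where 13.4% of all genes were called higher and 14.3% lower. The list's median log2 fold change was -0.16 and 0.27, against -0.01 and 0.00 over all genes tested. MMP13, a collagenase, rose in both lines (1.05 ± 0.11 and 0.97 ± 0.058), from 6.21 to 12.8 CPM and from 52.9 to 103 CPM. CSF2 and IL6 fell in CAL-27 (-2.46 and -1.68). PLAUR, the urokinase receptor, fell in CAL-27 (-0.63) and rose in SCC-15 (0.71), a difference of 1.35 ± 0.089 (edgeR adjusted p = 1.30e-21). HMOX1 fell in both (-0.48 and -0.37). The AP-1 targets farthest to the right in the plot of the lists, named after their values were seen, were low in the controls. So was the bZIP partner BATF2, which rose in SCC-15 from 0.0764 to 0.285 CPM (1.80 ± 0.695, edgeR adjusted p = 0.0432). SPRR1B, a precursor of the cornified envelope of keratinocytes, rose from 0.311 to 2.76 CPM in CAL-27 (3.13 ± 0.36, edgeR adjusted p = 4.23e-11) and from 0.942 to 3.14 CPM in SCC-15 (1.73 ± 0.29, edgeR adjusted p = 1.41e-06). SPRR1A, of the same family, rose from 0.0588 to 1.66 CPM and from 0.0387 to 0.325 CPM. MMP10, a stromelysin, rose in CAL-27 from 1.39 to 11.1 CPM (2.99 ± 0.25). The basal keratin KRT14, one of the epithelial markers, rose there from 3.44 to 73.2 CPM and measured 763 and 370 CPM in SCC-15; its part in these changes was not tested. Of 10 genes known as EGR1 targets, 3 rose and 3 fell in CAL-27, and 4 rose and 1 fell in SCC-15. PDGFA rose in CAL-27 (0.98), PDGFB fell there (-0.48) and rose in SCC-15 (0.83), and ICAM1 fell in both (-0.17 and -1.14).

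**Figure D5:**
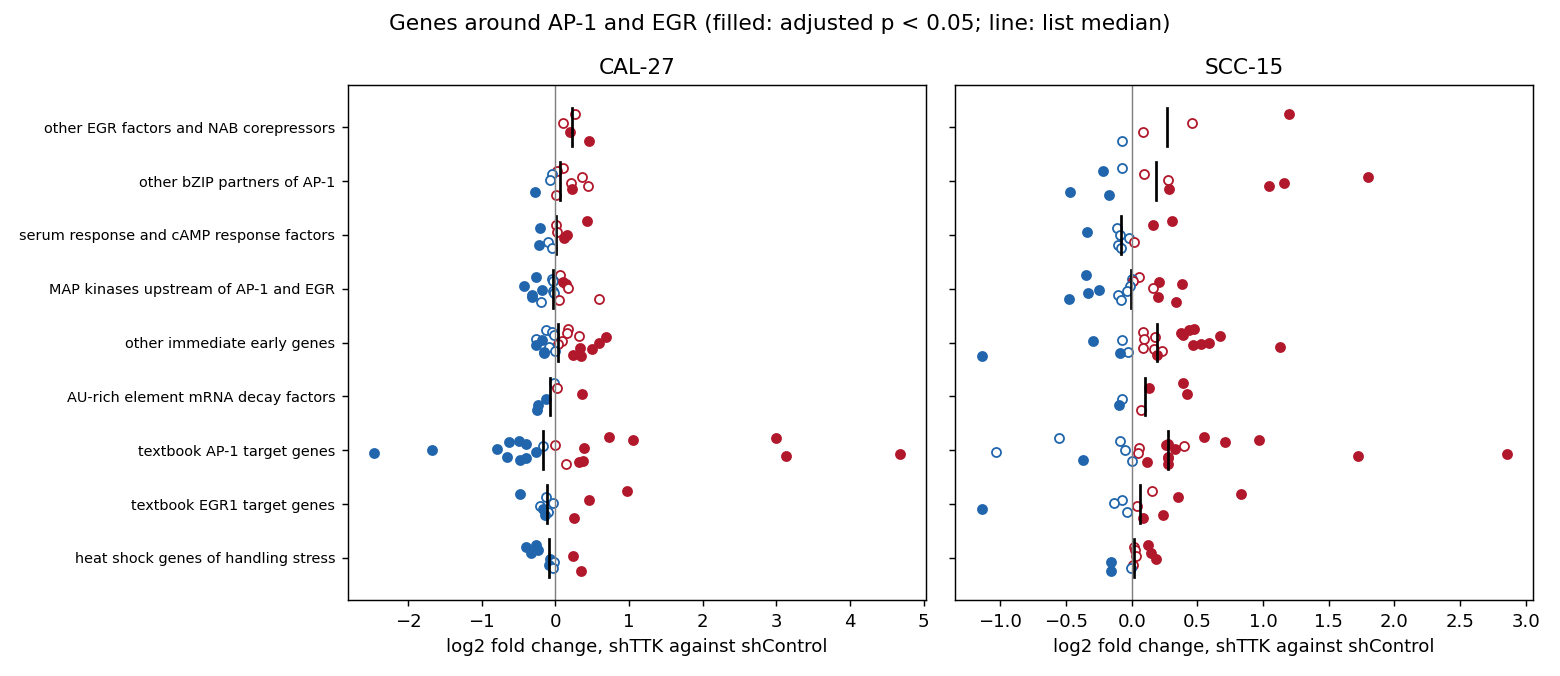
Log2 fold change with TTK knockdown (horizontal axes, on different scales) of the tested genes of 9 lists (rows) in CAL-27 (left) and SCC-15 (right), filled where the edgeR adjusted p was under 0.05, red above 0 and blue below, with the list median as a black line. The AP-1 targets have a median of -0.16 in CAL-27 and 0.27 in SCC-15.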

How the data were processed

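Poly(A)-selected RNA of 12 libraries was read as strand-specific paired ends, per the labels' protocols. The authors deposited whole, unnormalized counts, 1 line per gene symbol. Build hg38, featureCounts 2.0.1, STAR 2.7.7a and Trim Galore 0.6.6 were used per the submitters' processing notes. The annotation, strand setting and treatment of multi-mapped reads were not given in the sources used here. The members, gene lists and alternatives were chosen with earlier results of these data known.

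Genes were filtered with filterByExpr, scaled by TMM and fitted with edgeR 4.0.16 (R 4.3.3, limma 3.58.1) by a robust quasi-likelihood model with 4 group means on all 12 libraries, which left 8 residual degrees of freedom. Tests were two-sided with Benjamini-Hochberg adjustment over 16946 genes. SE is the log2 fold change over the root of F, and intervals use the t distribution of the moderated fit. The spread of FOS, FOSB, EGR1, EGR2 and ATF3 lay above the trend, so their tests had about 8.2 degrees of freedom in all, against 72.9 for FOSL2. Positions and exon lengths are from GENCODE 29 (GRCh38), promoter windows from RefSeq (GRCh38.p14). In the lists, CCN1 and CCN2 were matched as CYR61 and CTGF. The text names the 10 members, TTK, up to 2 genes per list, line and direction by adjusted p among those called, and the nearest profiles; HOOK2 was added for its overlap, and some genes that the rule names are not reported here. Alternatives were RLE scaling, DESeq2 1.42.0, limma-voom, no filter or 1 CPM in 3 libraries, each line fitted alone, a replicate block, both SCC-15 libraries numbered 1 left out, and each of the 12 libraries left out. The fit was also run on simulated data, and the outcome is not reported here. No column lacked a sample (0 columns).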

Additional observations from a re-analysis of the deposited data

Results flagged for a closer look

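The response to TTK knockdown differed between the lines, by the test of the difference itself, in 3 of the 10 genes and in TTK, while 25.4% of all genes tested were called for this difference, so the count is near the share over all genes. FOSB rose more in CAL-27, with a change in SCC-15 minus that in CAL-27 of -0.62 (edgeR adjusted p = 3.49e-03), and this call held in all 19 alternatives. JUN rose more in SCC-15, by 0.41 (edgeR adjusted p = 9.82e-08), which also held in all 19. For ATF3 the difference was -0.56 (edgeR adjusted p = 0.0208), with all 3 shTTK libraries of SCC-15 below all controls, and it held in 15 of 19. TTK fell further in SCC-15, by a difference of -0.67 (edgeR adjusted p = 2.37e-08).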

How the results depend on the processing

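Of the log2 fold changes of the 10 genes and TTK in the 4 comparisons, 2 reversed in any alternative, both the uncalled JUND difference between the lines (main value 0.05), at -0.022 without CAL-27 control library 2 and -0.031 without SCC-15 shTTK library 1 (leaving out 1 library gave -0.031 to 0.111). The calls of FOSB, FOSL2, JUN, JUNB and EGR2 in CAL-27 and of FOSL2, JUN and JUNB in SCC-15 held in all 20 alternatives, and all 10 differences between the control groups in all 19. Leaving out 1 library gave 6 to 9 members called in CAL-27 (0 to 1 lower), 4 to 8 in SCC-15 (4 to 7 higher, 0 to 1 lower) and 3 to 5 for the difference between lines (1 to 2 higher, 1 to 4 lower). In SCC-15, where 7 members were called, 4 were without both libraries numbered 1, with 0 lower. The count of lower members in SCC-15 was also 0 with limma-voom and with no filter on low counts. For the difference, 2 members were higher with RLE scaling, with no filter on low counts and without both SCC-15 libraries numbered 1, the last with 1 lower. With no filter on low counts, 1 member was lower in CAL-27. With the longest transcript as the gene length, the FOSB share of its family was 25.6%, 33.3%, 21.1% and 21.5% in CAL-27 shControl and shTTK and SCC-15 shControl and shTTK. The FOSL1 share was then 18.6%, 14.6%, 15.1% and 16.4% in the same groups. Whether the replicate numbers pair the libraries is not known. The deviations of same-numbered libraries from their group means correlated at -0.02, 0.01 and -0.01 in CAL-27 and -0.01, 0.00 and 0.03 in SCC-15. This correlation weighs all genes tested equally, those with low counts included, so it cannot decide the question. In SCC-15 both libraries numbered 1 had the highest mitochondrial share of their groups (3.86% and 2.69% of counts). With the replicate block, 4 members were called in SCC-15 (0 lower; EGR1, EGR2 and ATF3 were lost at edgeR adjusted p = 0.0501, 0.0975 and 0.116), and the difference between the lines had 2 higher and 1 lower, with that of ATF3 lost (-0.56, edgeR adjusted p = 0.0891). The cause of these changes was not tested.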

Other observations

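Across the 12 libraries, the genes closest to widely varying members were found by the root mean square distance of log2 CPM centred on the gene mean, among 9610 genes with a mean of at least 10 CPM. The distance is dominated by the difference between the lines and says nothing of shared control. FOSL1 lay closest to TMEM123 (0.085) and CLIC4 (0.088), and JUNB to RIN1 (0.094) and EIF4A2 (0.10). FOSB lay closest to TIPARP (0.11), which rose in CAL-27 from 313 to 463 CPM (log2 fold change 0.57 ± 0.056, edgeR adjusted p = 3.48e-06) and was at 0.10 ± 0.064 in SCC-15. For ATF3 the closest genes were the mitochondrially encoded MT-CO2 (0.10) and MT-CO1 (0.10). JUN had no gene nearer than SH3YL1 (0.15), and EGR2 none nearer than OAS2 (0.33).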
